A study of Mus musculus with 16 samples.

Results

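Macrophages, monocytes, dendritic cells and Langerhans cells of the esophagus were followed through 36 genes that mark them or carry out their work. The genes were chosen by symbol, with earlier results of these data known, and all 36 were found among the 41411 genes of the deposited table of normalized counts. The RNA was from the whole esophagus of mice on the C57BL/6 background, in a model of eosinophilic esophagitis (EoE), an allergic inflammation of the gullet. The model uses the hapten oxazolone (OXA). The 4 groups, with 4 libraries each, were Il13ra1-/- (KO) mice given OXA, Il13ra1-/- mice given vehicle, wild-type (WT) mice given OXA and WT mice given vehicle. No other allele or agent was named, and the sources used here give no age, sex, dose, duration or deleted exons. The comparisons were OXA against vehicle within each genotype, the difference of these OXA effects between the genotypes (the interaction), and KO against WT under each treatment.

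Il13ra1 encodes a chain that pairs with the IL-4 receptor alpha chain to form the type II receptor, through which IL-13 and IL-4 signal in epithelium, stroma and some myeloid cells. Monocytes arrive from blood and become macrophages or monocyte-derived dendritic cells in inflamed tissue, while resident macrophages and Langerhans cells live in the tissue and can renew themselves there. Conventional dendritic cells take up antigen, mature, and travel along CCR7 ligands to lymph nodes. Langerhans cells sit within stratified squamous epithelium such as that of skin and esophagus, and are known by langerin, the product of Cd207.

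CEL-Seq, which sequences tags from the 3' ends of transcripts, gave 8.82 to 15.2 M gene reads in KO OXA, 7.91 to 16.5 M in KO vehicle, 20.2 to 27.3 M in WT OXA and 5.61 to 9.55 M in WT vehicle libraries, so WT OXA was the deepest group. All values below are normalized counts, the authors' counts divided by 1 size factor per library, and replicates are listed in the order 1 to 4, so that KO OXA 3 is replicate 3 of that group. The reported folds are log2 differences on log2(value + 1), which understates the change of low genes, ± SE, tested with limma. A gene is called where the p-value, adjusted by Benjamini-Hochberg over all 16748 genes tested, is under 0.05. Il13ra1 read 44, 174, 68.1 and 110.3 in KO OXA libraries, against 31.2, 64.7, 48.7 and 55.8 in KO vehicle libraries. In WT, Il13ra1 read 584, 673, 752 and 874 with OXA, against 207, 226, 197 and 134 with vehicle. KO was lower under OXA (-3.02 ± 0.32, adjusted p = 1.1e-06) and under vehicle (-1.93 ± 0.32, adjusted p = 0.0267). The vehicle call was lost without KO vehicle 1, 3 or 4, WT OXA 2 or WT vehicle 1, 2 or 3 (adjusted p from 0.053 to 0.122) and with no filter, totals set equal or thinned reads (adjusted p from 0.0506 to 0.0877). Tags remained in KO, and tags outside a deleted part cannot check a deletion. All 6 squamous epithelial and all 5 skeletal muscle markers had reads in every group. The muscle markers summed to 116180 to 181728 in KO OXA, 171404 to 223889 in KO vehicle, 72046 to 131035 in WT OXA and 133012 to 253316 in WT vehicle libraries. With OXA, 0 of the 5 fell in KO by limma (0 also before adjustment, at 0.05, and by edgeR and DESeq2) and 3 in WT (median log2 fold -0.38 in KO and -1.23 in WT), 3 were higher in KO OXA than in WT OXA, and their part in the results was not tested. KO OXA replicate 2 and KO vehicle replicate 2 stood apart by B and plasma cell markers, whose 6 genes summed to 2036 and 1601 there, against 50.4 to 117 in the other 6 KO libraries, 803 to 1476 in WT OXA and 46.8 to 104 in WT vehicle libraries. Mitochondrial ribosomal RNA, a share that can follow RNA quality and depth, averaged 0.778% of reads in KO OXA, 1.15% in KO vehicle, 0.454% in WT OXA and 1.34% in WT vehicle, and its part in the results was not tested. In RNA from whole tissue, fewer cells of a type and less RNA per cell cannot be told apart. The labels do not say that each library was a separate animal, so the p-values measure the spread between these libraries.

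By adjusted p, OXA raised most of these genes in WT mice and many in KO mice. Macrophage and Fc receptor genes were called in both genotypes, and most dendritic cell genes were called in WT. Of the 34 members that could be tested, 15 were higher with OXA in KO libraries (44.1% of members, against 1.81% of all genes), and none was lower by limma (0 at an unadjusted p under 0.05, 0 by edgeR and 0 by DESeq2, against 0.0896% of all genes). In WT libraries 21 were higher and 2 lower with OXA, 61.8% and 5.88% of members, where 18% and 16% of all tested genes were called. The members were chosen with earlier results of these data known, so these shares describe them and do not test an excess. At an unadjusted p under 0.05, 28 members were higher in KO and 23 in WT (82.4% and 67.6%, against 9.44% and 23.7% of all genes). With edgeR 17 were called higher in KO and 19 in WT, and with DESeq2 20 and 19. Values were above 0 for 33 members in KO and 30 in WT. The median log2 fold over the 34 was 1.42 in KO and 1.68 in WT, beside -0.015 and 0.099 over all genes. In both genotypes OXA raised 10 members, the phagocyte genes Adgre1, Aif1, Ctss, Laptm5 and Ms4a7, the Fc receptor genes Fcer1g, Fcgr1 and Fcgr4, and the dendritic cell genes Batf3 and Ccl22. Called higher in KO, and not called in WT, were Fcgr3, Ly6c2, Lyz2 and Tyrobp. Called higher in WT, and not called in KO, were 11 genes, mostly of dendritic cells: Ccr7, Clec10a, Clec9a, Flt3, Fscn1, Itgax, Xcr1 and Zbtb46, with Cd68, Cx3cr1 and Spi1. Folr2 was higher with OXA in KO and lower in WT, and Cd207 was lower in WT and not called in KO. Cd14, Cd163, Cd209a, Csf1r, Lyve1, Mertk and Trem2 were called in neither. Itgam, at 0 in all 16 libraries, and Ccl17, below the filter, were not tested. The KO OXA and KO vehicle libraries did not overlap for 17 members, all higher (3.93% of all genes, and 2.94% lower). The WT OXA and WT vehicle libraries did not overlap for 20 higher and 2 lower members (18.5% and 15.7% of all genes). With all library totals set equal, the median of all genes moved by 0.31 in WT and by -0.12 in KO, 77.3% of WT calls were higher against 53.0% in the analysis reported, and no called member changed direction.

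**Figure D1:**
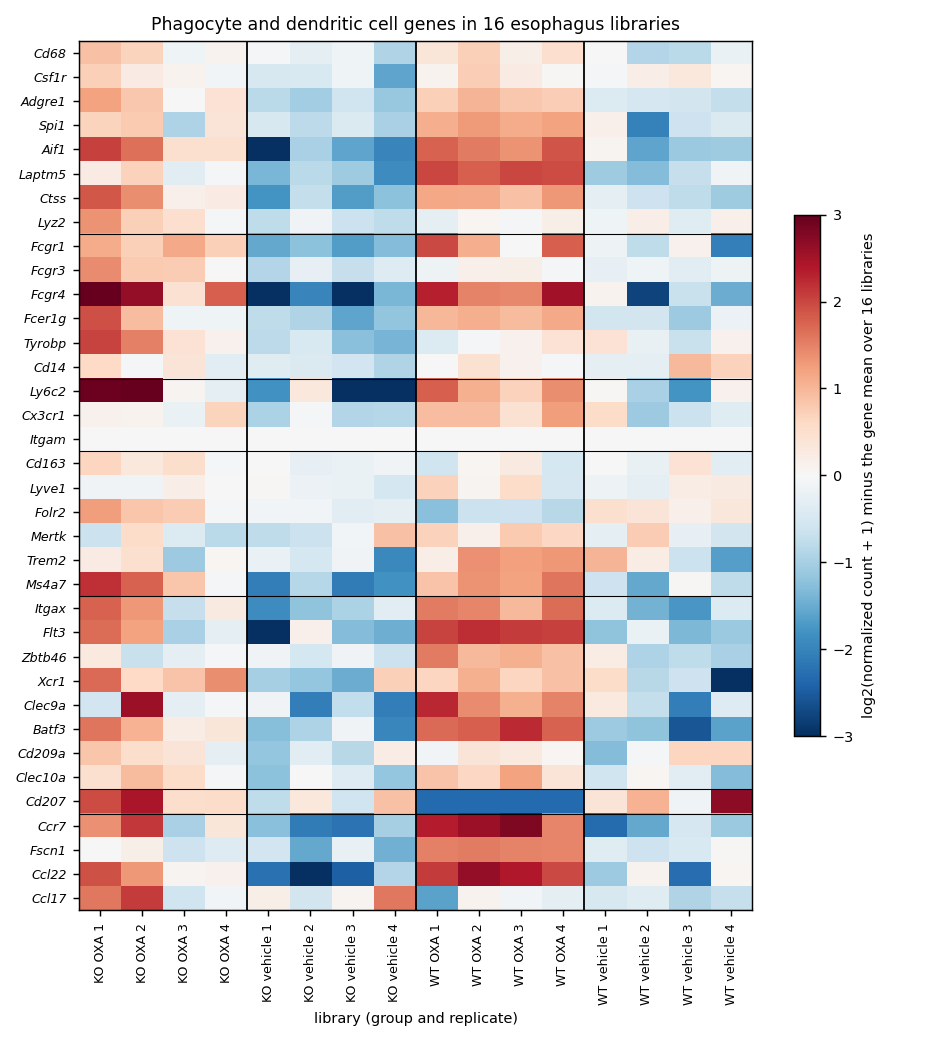
Heat map of the 36 genes (down the page, in the role groups used here, parted by lines) across the 16 libraries (columns, in the order KO OXA, KO vehicle, WT OXA, WT vehicle). Colour gives log2(normalized count + 1) minus that gene's mean over the 16 libraries, red above and blue below it. Most genes are red in both OXA groups, KO OXA replicates 1 and 2 are the redder KO OXA libraries, and Cd207 and Folr2 are blue in the WT OXA libraries.

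RefSeq promoters on GRCm38.p6, taken from 250 bases before to 50 after each gene's start, were found for 28 of the 36 members, and 3 letter patterns known for myeloid or cytokine-driven factors were sought in them on both strands. GAGGAAGT, letters bound by PU.1, the myeloid master regulator that Spi1 encodes, was found for 3 of the 28 (Ctss, Fcgr4 and Ly6c2) and in 3.20% of all 32851 promoters. TTC and GAA parted by any 4 bases, which reads the same on both strands and is bound by STAT6 downstream of IL-4 and IL-13, was found for 3 (Ccl17, Itgax and Ms4a7) and in 6.95%. GGG and TTCC parted by any 3 bases, a pattern bound by NF-kB, was found for 2 (Fcgr3 and Ly6c2) and in 5.56%. No matches to different patterns overlapped in the members. A match here is a description of letters, not a site in use. Ctss, Fcgr4 and Ms4a7 are printed because OXA raised them in both genotypes, with capitals on the match. It begins at -2 from the start in Ctss and at -24 in Fcgr4, both as the reverse complement of the PU.1 letters, and at -13 in Ms4a7 with the STAT6 letters. Folr2 and Cd207 are printed without capitals because their OXA effects differed most between the genotypes among the called genes, and none of the 3 patterns is in these windows. The regions are chr3:95526536-95526835 and chr1:171018676-171018975 on the plus strand and chr19:11336097-11336396 (the Ms4a7 start with the match, of 2 listed), chr7:101845282-101845581 (1 of 2 Folr2 starts listed) and chr6:83677808-83678107 on the minus strand, each given 5' to 3' along its gene.
Ctss: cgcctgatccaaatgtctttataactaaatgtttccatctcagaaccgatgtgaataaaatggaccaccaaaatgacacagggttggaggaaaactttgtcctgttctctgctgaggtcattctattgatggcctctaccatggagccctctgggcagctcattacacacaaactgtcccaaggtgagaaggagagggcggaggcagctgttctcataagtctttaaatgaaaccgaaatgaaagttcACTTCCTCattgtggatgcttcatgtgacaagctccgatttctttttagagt
Fcgr4: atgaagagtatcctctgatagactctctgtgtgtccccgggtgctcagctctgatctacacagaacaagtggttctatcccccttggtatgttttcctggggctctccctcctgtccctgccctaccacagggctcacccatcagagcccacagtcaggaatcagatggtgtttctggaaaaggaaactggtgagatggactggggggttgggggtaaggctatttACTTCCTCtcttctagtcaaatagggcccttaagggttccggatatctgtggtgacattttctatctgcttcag
Ms4a7: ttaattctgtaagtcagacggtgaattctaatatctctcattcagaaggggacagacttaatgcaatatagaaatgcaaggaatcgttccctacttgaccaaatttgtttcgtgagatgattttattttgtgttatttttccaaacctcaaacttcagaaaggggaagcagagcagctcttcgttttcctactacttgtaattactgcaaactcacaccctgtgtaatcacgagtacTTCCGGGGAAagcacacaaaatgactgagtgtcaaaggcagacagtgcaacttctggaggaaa
Folr2: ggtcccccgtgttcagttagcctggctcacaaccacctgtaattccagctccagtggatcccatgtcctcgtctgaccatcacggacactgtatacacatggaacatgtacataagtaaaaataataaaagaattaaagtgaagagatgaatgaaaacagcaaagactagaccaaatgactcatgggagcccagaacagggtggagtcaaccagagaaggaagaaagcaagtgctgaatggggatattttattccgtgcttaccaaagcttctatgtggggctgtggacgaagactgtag
Cd207: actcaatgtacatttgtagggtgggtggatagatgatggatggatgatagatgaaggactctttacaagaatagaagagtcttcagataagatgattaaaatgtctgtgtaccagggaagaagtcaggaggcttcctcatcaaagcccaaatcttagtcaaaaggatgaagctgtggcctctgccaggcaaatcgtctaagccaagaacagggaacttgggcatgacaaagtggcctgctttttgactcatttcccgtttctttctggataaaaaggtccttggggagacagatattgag

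Among 8 genes shared by phagocytes, 5 rose with OXA in KO and 6 in WT, beside 1.81% and 18% of all genes. Aif1, Ctss, Laptm5 and Adgre1 rose in both. Aif1, an actin-bundling protein of macrophages, read 337, 255, 111 and 112 in KO OXA libraries, against 8.77, 40.6, 25.9 and 19.7 in KO vehicle libraries. In WT it read 275, 239, 207 and 297 in WT OXA libraries, against 85.4, 26.3, 36.5 and 37.9 in WT vehicle libraries. Every OXA library was above every vehicle library of its genotype. The log2 fold was 3.06 ± 0.43 (adjusted p = 0.000244) in KO and 2.56 ± 0.43 (adjusted p = 0.000159) in WT. Ctss (ENSMUSG00000038642, GRCm38 chromosome 3, 95526786 to 95556403, a protein-coding gene), the cathepsin that trims invariant chain for antigen presentation, read 5209, 3765, 1586 and 1711 in KO OXA libraries, against 411, 876, 450.4 and 614 in KO vehicle libraries. In WT libraries Ctss read 3223, 3136, 2646 and 3545 with OXA, against 1165, 935, 839 and 679.7 with vehicle. KO OXA replicates 1 and 2 were above all WT OXA libraries and replicates 3 and 4 below them, while all OXA libraries exceeded all vehicle libraries. Ctss rose by 2.26 ± 0.31 (adjusted p = 0.000168) in KO and by 1.81 ± 0.31 (adjusted p = 0.000162) in WT. Adgre1, which encodes the macrophage surface protein F4/80, rose by 1.504 ± 0.23 (adjusted p = 0.000514) in KO, with 304, 229.8, 131 and 177 in KO OXA against 75, 63, 86.7 and 59.1 in KO vehicle libraries. In WT it rose by 1.36 ± 0.23 (adjusted p = 0.000141), with 218, 268, 231 and 220.3 in WT OXA against 99.1, 92.7, 89.4 and 80.2 in WT vehicle libraries, and neither genotype's groups overlapped. Eosinophil markers, 6 genes, summed to 11.1 to 51.2 in KO OXA and 8.37 to 14.7 in KO vehicle libraries. In WT their sums were 54.8 to 99.0 with OXA and 9.12 to 27.8 with vehicle. Epx was at 0 in every group, Ccr3 in KO vehicle, and Prg2 and Siglecf in WT vehicle. The part of eosinophils in the Adgre1 values was not tested.

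Laptm5 rose in both genotypes, but to different levels. This lysosomal membrane protein of blood-derived cells (ENSMUSG00000028581, GRCm38 chromosome 4, 130913125 to 130936141, protein-coding) read 601, 808, 404 and 488 in KO OXA libraries, against 193, 288, 239 and 136 in KO vehicle libraries. It read 2032, 1736, 2030.0 and 1960.3 in WT OXA libraries, against 239.6, 202, 312 and 466 in WT vehicle libraries. The 4 WT OXA libraries lay close together and all above the highest KO OXA library, and both OXA groups were clear of their vehicle groups. The rise was 1.43 ± 0.25 (adjusted p = 0.00264) in KO and 2.74 ± 0.25 (adjusted p = 1.61e-07) in WT, and the difference of these effects was -1.31 ± 0.36 (adjusted p = 0.0159), a call that held under every alternative tried. T cell markers, 8 genes, summed to 299.6 to 1392 in KO OXA and 856 to 1196 in WT OXA libraries. B and plasma cell markers, 6 genes, summed to 50.4 to 2036 in KO OXA and 803 to 1476 in WT OXA libraries. Of the 5 B and plasma cell genes tested, OXA raised 1 in WT (median log2 fold 0.84) and 0 in KO (median -0.61). The part of these cells in the Laptm5 values was not tested. Spi1, the gene of PU.1, read 198, 216, 64.4 and 161 in KO OXA libraries, against 88.7, 71.6, 91.3 and 62.4 in KO vehicle libraries. In WT, Spi1 read 265, 302, 268 and 286 with OXA, against 138, 29.4, 80.3 and 91.4 with vehicle. Here WT OXA libraries were all above WT vehicle libraries, whereas KO OXA replicate 3 lay within the KO vehicle range. Spi1 rose in WT (1.91 ± 0.38, adjusted p = 0.000736), and its KO value was 0.89 ± 0.38 (adjusted p = 0.289), with no called difference between the effects (-1.01 ± 0.54, adjusted p = 0.208). Cd68, a lysosomal glycoprotein of phagocytes, read 138, 119, 68.1 and 81.2 in KO OXA libraries, against 72.1, 61.3, 68.5 and 39.4 in KO vehicle libraries. In WT, Cd68 read 95.8, 124, 84.3 and 107 with OXA, against 74.3, 40.2, 42 and 64.6 with vehicle. WT groups did not overlap, while KO OXA replicate 3 was below 2 KO vehicle libraries. Cd68 rose by 0.92 ± 0.29 (adjusted p = 0.0189) in WT. This call was lost without WT OXA 2 or WT vehicle 2 or 3 (adjusted p from 0.0524 to 0.0603), and its KO value was 0.72 ± 0.29 (adjusted p = 0.251).

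Lyz2, the macrophage lysozyme gene (ENSMUSG00000069516, GRCm38 chromosome 10, 117277331 to 117282321), rose in KO libraries. It read 5908, 3814, 3316 and 2246 in KO OXA libraries, against 1381, 2169, 1492 and 1366 in KO vehicle libraries. In WT, Lyz2 read 1889, 2418, 2277 and 2626 with OXA, against 2125, 2652, 1808 and 2605 with vehicle. All KO OXA libraries were above all KO vehicle libraries, with replicate 1 the highest, and the WT groups overlapped. Lyz2 rose by 1.19 ± 0.23 (adjusted p = 0.00509) in KO, its WT value was 0.010 ± 0.23 (adjusted p = 0.977). The Lyz2 effects differed between genotypes by 1.18 ± 0.32 (adjusted p = 0.0154). This call was lost with totals set equal or thinned reads (adjusted p from 0.0626 to 0.0732). Lyz1, a near-identical lysozyme gene, read 277, 188, 257 and 157 in KO OXA, 155, 208, 151 and 190.4 in KO vehicle, 52.6, 76.5, 81.2 and 36.2 in WT OXA and 216, 215, 186 and 221 in WT vehicle libraries, so reads may be split between the pair and Lyz2 values are uncertain to that extent. Csf1r, the receptor for the macrophage growth factors CSF1 and IL-34, read 697, 507, 463 and 407 in KO OXA libraries, against 304, 309, 393 and 141 in KO vehicle libraries. It read 459.8, 718, 506 and 435 in WT OXA libraries, against 416, 491, 536 and 446 in WT vehicle libraries. KO OXA and KO vehicle libraries did not overlap and WT ones did, yet neither effect was called (0.92 ± 0.25, adjusted p = 0.0692 in KO and 0.14 ± 0.25 (adjusted p = 0.698) in WT). The KO value was called without KO OXA 4 or KO vehicle 3 (adjusted p from 0.0275 to 0.0383) and with DESeq2 (adjusted p = 0.0277). Hmgxb3 on the other strand covers the 3' end of Csf1r and the sources used here give no strand setting for the counting, so its counts are uncertain.

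Of 6 genes for Fc receptors, their adaptors and CD14, 5 rose in KO and 3 in WT, beside 1.81% and 18% of all genes. Fcer1g, Fcgr1 and Fcgr4 rose in both. Fcgr4, an activating receptor for IgG on monocytes and macrophages (ENSMUSG00000059089, GRCm38 chromosome 1, 171018920 to 171029761), changed most among all members in KO. It read 293, 173, 37.1 and 96.1 in KO OXA libraries, against 0, 6.04, 2.28 and 9.85 in KO vehicle libraries. In WT, Fcgr4 read 140.4, 77, 74.5 and 159 with OXA, against 28.9, 3.09, 16.4 and 8.91 with vehicle. The KO OXA libraries spread widely, but the lowest still exceeded every KO vehicle library, and the WT groups did not overlap either. Fcgr4 rose by 4.88 ± 0.72 (adjusted p = 0.000362) in KO and by 3.16 ± 0.72 (adjusted p = 0.00209) in WT, with no called difference between the effects (1.73 ± 1.01, adjusted p = 0.256). Fcgr1, the high-affinity IgG receptor, read 47.7, 35.7, 48.3 and 36.2 in KO OXA libraries, against 6.82, 8.63, 6.09 and 8.21 in KO vehicle libraries. In WT, Fcgr1 read 88.2, 47.2, 21.6 and 77.2 with OXA, against 19.3, 12.4, 23.7 and 4.46 with vehicle. KO groups did not overlap, while WT OXA replicate 3 lay below WT vehicle replicate 3. Its rise was 2.35 ± 0.48 (adjusted p = 0.00972) in KO and 1.92 ± 0.48 (adjusted p = 0.00426) in WT. Fcer1g, the signalling chain shared by Fc receptors, read 1366, 675, 322 and 326 in KO OXA libraries, against 208, 189, 119 and 156 in KO vehicle libraries. In WT, Fcer1g read 714, 762, 683 and 777 with OXA, against 242, 241, 166 and 316 with vehicle. KO OXA replicate 1 was far above the other KO OXA libraries, and no OXA library reached down to its vehicle group. Fcer1g rose by 1.76 ± 0.33 (adjusted p = 0.00463) in KO and 1.63 ± 0.33 (adjusted p = 0.000866) in WT. Mast cell markers, 8 genes, summed to 50.4 to 412 in KO OXA and 44.8 to 220 in KO vehicle libraries. In WT their sums were 131 to 176 with OXA and 61.95 to 243 with vehicle. Ms4a2 was at 0 in both vehicle groups and Tpsab1 in KO vehicle. The part of mast cells, neutrophils and NK cells in the Fcer1g, Tyrobp and Fcgr3 values was not tested.

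Tyrobp and Fcgr3 rose with OXA in KO libraries, and their OXA effects differed between the genotypes. Tyrobp, which encodes DAP12, the adaptor of TREM2 and other myeloid receptors (ENSMUSG00000030579, GRCm38 chromosome 7, 30413760 to 30417585), read 739, 512, 243 and 196 in KO OXA libraries, against 103, 129, 74.6 and 67.3 in KO vehicle libraries. It read 135, 174, 197 and 241 in WT OXA libraries, against 241, 155, 113 and 196 in WT vehicle libraries. KO OXA libraries were all above KO vehicle libraries, and KO OXA replicates 1 and 2 were above every WT library, while the WT groups overlapped. The rise was 2.01 ± 0.35 (adjusted p = 0.0021) in KO, the WT value was 0.11 ± 0.35 (adjusted p = 0.844), and the difference of the effects was 1.90 ± 0.49 (adjusted p = 0.0116). This call was lost with thinned reads (adjusted p = 0.0566). Fcgr3, an activating low-affinity IgG receptor, read 462, 295, 291 and 170.2 in KO OXA libraries, against 93.6, 144, 106 and 131 in KO vehicle libraries. In WT, Fcgr3 read 155, 191, 193 and 167 with OXA, against 145, 158, 135 and 154 with vehicle. Its KO groups did not overlap, with replicate 4 the lowest of the KO OXA libraries, and the WT groups overlapped narrowly. Fcgr3 rose by 1.29 ± 0.24 (adjusted p = 0.00348) in KO, its WT value was 0.25 ± 0.24 (adjusted p = 0.44). The Fcgr3 effects differed between genotypes by 1.03 ± 0.33 (adjusted p = 0.0371). That last call was lost without KO OXA 1, 2 or 3, KO vehicle 1 or 3, WT OXA 1, 2, 3 or 4 or WT vehicle 2 or 4 (adjusted p from 0.0501 to 0.0811) and with no filter, totals set equal, thinned reads or both B-cell-rich KO libraries left out (adjusted p from 0.0504 to 0.151). Cd14, the co-receptor for bacterial lipopolysaccharide, was not called, with 0.73 ± 0.28 (adjusted p = 0.234) in KO and -0.14 ± 0.28 (adjusted p = 0.734) in WT. Its values were 204, 131, 176 and 106 in KO OXA and 104, 98.4, 89.8 and 70.6 in KO vehicle libraries, which did not overlap, and 133, 183, 147 and 129.6 in WT OXA and 112, 108, 265 and 216 in WT vehicle libraries, which did.

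Of the 3 monocyte genes, Ly6c2 was called higher in KO and Cx3cr1 in WT, and Itgam could not be read. At an unadjusted p under 0.05, 2 of 2 tested were higher in each genotype (9.44% of all genes in KO and 23.7% in WT). No difference of their OXA effects was called, and 0 passed an unadjusted p under 0.05, where 15.9% of all genes were higher and 15.9% lower. Ly6c2, the marker of inflammatory monocytes in mice, read 369, 693, 49.5 and 38.6 in KO OXA libraries, against 12.7, 58.7, 3.8 and 1.64 in KO vehicle libraries. In WT, Ly6c2 read 165, 99.5, 76.5 and 124 with OXA, against 48.2, 23.2, 12.8 and 51.3 with vehicle. KO OXA replicates 1 and 2 stood far above replicates 3 and 4, which lay below KO vehicle replicate 2, and the WT groups did not overlap. Ly6c2 rose by 3.90 ± 0.87 (adjusted p = 0.0188) in KO, and its WT value was 1.89 ± 0.87 (adjusted p = 0.1). The KO call was lost without KO OXA 1 or 2 or KO vehicle 3 or 4 (adjusted p from 0.0778 to 0.105) and with no filter, the compared groups alone or thinned reads (adjusted p from 0.0596 to 0.107), and the WT value was called with the compared groups alone, thinned reads or both B-cell-rich KO libraries left out (adjusted p from 0.00586 to 0.0334). Its near-identical neighbour Ly6c1, expressed by endothelium, read 13370.5, 8763, 4567 and 4509 in KO OXA libraries, against 1777, 1739.8, 1683 and 1551 in KO vehicle libraries. In WT, Ly6c1 read 4318, 4458, 4275 and 6415 with OXA, against 2769, 2038, 1899 and 2458 with vehicle, so reads shared between the pair leave Ly6c2 uncertain. Cx3cr1, the receptor for fractalkine, read 62.3, 61.9, 49.5 and 91.4 in KO OXA libraries, against 29.2, 55.2, 30.4 and 31.2 in KO vehicle libraries. In WT, Cx3cr1 read 110.0, 110.3, 79.2 and 138 with OXA, against 84, 26.3, 36.5 and 44.6 with vehicle. KO OXA replicate 3 lay below KO vehicle replicate 2, and WT OXA replicate 3 below WT vehicle replicate 1. Cx3cr1 rose by 1.2795 ± 0.34 (adjusted p = 0.00614) in WT, and its KO value was 0.86 ± 0.34 (adjusted p = 0.243). Wdr48 covers its 3' end on the other strand, so its counts carry the same doubt as those of Csf1r. Itgam, which encodes CD11b of monocytes and macrophages, was at 0 in every library, and the overlapping same-strand gene Gm49368, which covers its 3' end, read 0 to 4.73. A count of 0 here allows up to 3 reads a library and says nothing of the cells.

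Among 6 genes of resident macrophages, OXA raised Ms4a7 in both genotypes and moved Folr2 in opposite directions, while Cd163, Lyve1, Mertk and Trem2 were not called. Folr2, the folate receptor of tissue-resident macrophages (ENSMUSG00000032725, GRCm38 chromosome 7, 101839988 to 101857194), read 708, 531, 501 and 288 in KO OXA libraries, against 279, 283, 234 and 245 in KO vehicle libraries. It read 125, 189, 193 and 168 in WT OXA libraries, against 419, 386, 330.2 and 374 in WT vehicle libraries. All KO OXA libraries were above all KO vehicle libraries, all WT OXA libraries were below all WT vehicle libraries, and all KO OXA libraries were above all WT OXA libraries. Folr2 rose by 0.89 ± 0.22 (adjusted p = 0.0339) in KO and fell in WT (-1.17 ± 0.22, adjusted p = 0.000372). The effects differed by 2.06 ± 0.31 (adjusted p = 0.000142), which held under every alternative tried, as did the WT fall. The KO rise was lost without KO OXA 1, 2 or 3 or KO vehicle 1, 2, 3 or 4 (adjusted p from 0.0562 to 0.157) and with no filter, totals set equal, the compared groups alone, thinned reads or both B-cell-rich KO libraries left out (adjusted p from 0.0508 to 0.163). Gm10602 covers the 3' end of Folr2 on the other strand, with the same doubt as above. Ms4a7, a membrane protein of macrophages (ENSMUSG00000024672, GRCm38 chromosome 19, 11321039 to 11336146), read 93.5, 69.1, 35.9 and 18.9 in KO OXA libraries, against 3.9, 10.4, 3.8 and 4.92 in KO vehicle libraries. In WT, Ms4a7 read 36.3, 51.8, 46.7 and 62.1 with OXA, against 12.4, 6.18, 20.1 and 11.1 with vehicle. Neither genotype's groups overlapped, and the KO OXA libraries ranged most widely. Ms4a7 rose by 2.90 ± 0.49 (adjusted p = 0.0015) in KO and by 1.98 ± 0.49 (adjusted p = 0.00385) in WT.

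Cd163, the haemoglobin-haptoglobin scavenger receptor, read 264, 209.6, 244 and 165 in KO OXA libraries, against 169.6, 143, 148 and 158 in KO vehicle libraries. In WT, Cd163 read 111, 175, 204 and 117 with OXA, against 169, 145, 228 and 134 with vehicle. KO OXA replicate 4 lay just under KO vehicle replicate 1 and the WT groups overlapped widely, with 0.49 ± 0.23 (adjusted p = 0.33) in KO and -0.17 ± 0.23 (adjusted p = 0.598) in WT. Lyve1, a hyaluronan receptor of some resident macrophages and of lymphatic endothelium, read 867 to 1064 in KO OXA, 648 to 959 in KO vehicle, 652 to 1503 in WT OXA and 765 to 1128 in WT vehicle libraries, with no group apart. Its values were 0.21 ± 0.21 (adjusted p = 0.703) in KO and 0.19 ± 0.21 (adjusted p = 0.528) in WT, and the 6 lymphatic endothelial markers (Prox1, Flt4, Pdpn, Mmrn1, Reln and Ccl21a) summed to 694 to 1273 in KO OXA, 885 to 1142 in KO vehicle, 989 to 1769 in WT OXA and 938 to 1061 in WT vehicle libraries. OXA raised 2 of the 6 in WT, and 1 was higher and 4 were lower in KO OXA than in WT OXA. Mmrn1 was at 0 in WT OXA, and the part of lymphatic cells in the Lyve1 values was not tested. Mertk, a receptor for the clearance of dying cells, gave -0.18 ± 0.35 (adjusted p = 0.871) in KO and 0.65 ± 0.35 (adjusted p = 0.163) in WT. It read 136, 314, 159.7 and 122 in KO OXA and 126, 135, 202 and 397 in KO vehicle libraries, and 347, 239, 368 and 330.5 in WT OXA and 176, 365, 179 and 145 in WT vehicle libraries. WT vehicle replicate 2 was within the WT OXA range, and the WT value was called without WT vehicle 2 (adjusted p = 0.0441) and with totals set equal or thinned reads (adjusted p from 0.0399 to 0.0449). Trem2, a lipid-sensing receptor that signals through DAP12, read 11, 13.1, 3.71 and 9.45 in KO OXA libraries, against 7.8, 6.04, 8.37 and 1.64 in KO vehicle libraries. In WT, Trem2 read 10.5, 25.1, 22.8 and 23.8 with OXA, against 19.3, 10.8, 5.47 and 2.23 with vehicle. These were low counts with overlap in both genotypes (0.61 ± 0.61, adjusted p = 0.706 in KO and 1.29 ± 0.61 (adjusted p = 0.113) in WT), and the WT value was called without WT vehicle 1 (adjusted p = 0.045) and with totals set equal or thinned reads (adjusted p from 0.0436 to 0.0468).

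**Figure D2:**
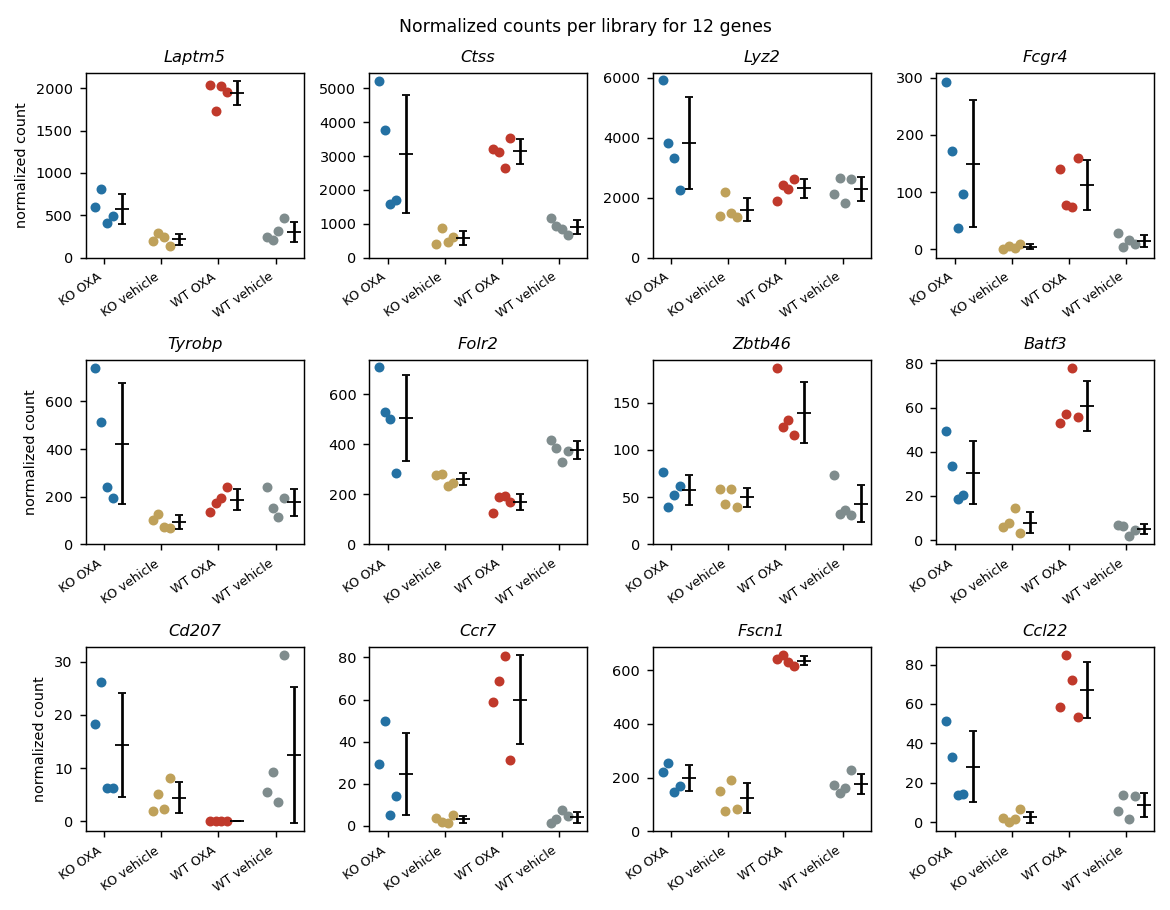
Normalized counts per library (vertical axis, linear, own scale for each gene) for 12 genes in KO OXA, KO vehicle, WT OXA and WT vehicle libraries. Points are the 4 libraries of a group, the dash with its bar is the mean ± SD. Laptm5, Zbtb46, Batf3 and Fscn1 are highest in WT OXA libraries, Lyz2, Tyrobp and Folr2 in KO OXA libraries, and Cd207 is at 0 in all 4 WT OXA libraries.

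Conventional dendritic cell genes rose broadly in WT, 7 of 8, and 1 of 8, Batf3, was called in KO. Over all genes tested, 18% were called higher in WT and 1.81% in KO. All 8 KO values were positive, with a median log2 fold of 1.71 in KO beside 2.16 in WT. Of the 8, edgeR called 2 higher in KO and 5 in WT, and DESeq2 4 and 5. At an unadjusted p under 0.05, 6 of the 8 were higher in KO and 7 in WT, where 9.44% and 23.7% of all genes were. The interaction was called for 1 of the 8, Zbtb46, lower in KO (7.67% of all genes). Zbtb46, a transcription factor largely restricted to conventional dendritic cells among leukocytes (ENSMUSG00000027583, GRCm38 chromosome 2, 181387762 to 181459426), read 77, 39.3, 52 and 61.5 in KO OXA libraries, against 58.5, 43.1, 58.6 and 39.4 in KO vehicle libraries. It read 187, 124, 132 and 116 in WT OXA libraries, against 73, 32.5, 36.5 and 31.2 in WT vehicle libraries. The KO groups overlapped, the WT groups did not, and every WT OXA library was above every library of the other 3 groups. Zbtb46 rose by 1.73 ± 0.30 (adjusted p = 0.000218) in WT, its KO value was 0.18 ± 0.30 (adjusted p = 0.843). The Zbtb46 effects differed between genotypes by -1.55 ± 0.43 (adjusted p = 0.0163), a call that held under every alternative tried. Endothelium also uses Zbtb46, and the 6 blood endothelial markers (Pecam1, Cdh5, Kdr, Tek, Vwf and Ly6c1) summed to 4954 to 13966 in KO OXA, 2147 to 2625 in KO vehicle, 5771 to 7533 in WT OXA and 2625 to 3492 in WT vehicle libraries, most of it Ly6c1, which rose in both genotypes. Of these 6, OXA raised 1 in KO and 6 in WT. The other 5 had KO values below 0, and for these 5 the effect was lower in KO than in WT (median of the 6 -1.77) and KO OXA was lower than WT OXA (median of the 6 -1.99). None of the 6 was at 0 in any group, and the part of endothelium in the Zbtb46 result was not tested. Batf3, needed in mice for the cross-presenting dendritic cells called cDC1, read 49.5, 33.3, 18.6 and 20.5 in KO OXA libraries, against 5.85, 7.77, 14.5 and 3.28 in KO vehicle libraries. In WT, Batf3 read 53, 57, 77.7 and 55.6 with OXA, against 6.88, 6.18, 1.82 and 4.46 with vehicle. All OXA libraries were above the vehicle libraries of their genotype, and all WT OXA libraries were above all KO OXA libraries. Batf3 rose by 1.88 ± 0.48 (adjusted p = 0.0453) in KO and 3.49 ± 0.48 (adjusted p = 1.74e-05) in WT. The KO call rested on a p near the threshold and was lost without KO OXA 1 or 2, KO vehicle 1, 2 or 4 or WT OXA 1, 2, 3 or 4 (adjusted p from 0.0674 to 0.193) and with a pseudocount of 0.5, no filter, the stricter filter, totals set equal, quantile scaling, the compared groups alone, a robust fit, thinned reads or both B-cell-rich KO libraries left out (adjusted p from 0.0504 to 0.202).

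Xcr1 and Clec9a, further markers of cDC1, were low. Xcr1, the receptor for the chemokine XCL1, read 49.5, 22.6, 27.2 and 40.2 in KO OXA libraries, against 6.82, 6.04, 4.57 and 24.6 in KO vehicle libraries. In WT, Xcr1 read 23.6, 31.8, 23.5 and 27.5 with OXA, against 22, 7.73, 9.12 and 0 with vehicle. KO vehicle replicate 4 was high for its group and overlapped the KO OXA libraries, while WT OXA libraries were all above the WT vehicle libraries. It rose by 2.03 ± 0.71 (adjusted p = 0.0321) in WT. This call was lost without WT OXA 1, 2, 3 or 4 or WT vehicle 4 (adjusted p from 0.0536 to 0.118) and with no filter, quantile scaling, the compared groups alone, edgeR or DESeq2 (adjusted p from 0.0574 to 0.102). Its KO value was 1.87 ± 0.71 (adjusted p = 0.226), called without WT vehicle 4 (adjusted p = 0.0486) and with DESeq2 (adjusted p = 0.0408). Clec9a, a receptor for dead-cell actin, read 1.83, 23.8, 2.48 and 3.15 in KO OXA libraries, against 2.92, 0, 1.52 and 0 in KO vehicle libraries. In WT, Clec9a read 19.2, 10.3, 7.85 and 10.8 with OXA, against 4.13, 1.55, 0 and 2.23 with vehicle. KO OXA replicate 2 held most of the KO OXA signal and the WT groups did not overlap. Clec9a rose by 2.28 ± 0.79 (adjusted p = 0.0303) in WT. This call was lost without WT OXA 1, 2 or 4 or WT vehicle 3 (adjusted p from 0.056 to 0.095) and with quantile scaling, edgeR, DESeq2 or thinned reads (adjusted p from 0.0533 to 0.0804), and its KO value was 1.67 ± 0.79 (adjusted p = 0.343). Flt3, the receptor for the dendritic cell growth factor FLT3 ligand, read 36.7, 26.2, 4.95 and 8.67 in KO OXA libraries, against 0, 12.1, 3.8 and 3.28 in KO vehicle libraries. In WT, Flt3 read 46.8, 53.4, 49.4 and 47.5 with OXA, against 4.13, 9.27, 3.65 and 4.46 with vehicle. KO OXA replicates 1 and 2 were above every vehicle library and below every WT OXA library, and replicates 3 and 4 were inside the KO vehicle range. It rose by 3.05 ± 0.68 (adjusted p = 0.0018) in WT, and its KO value was 1.94 ± 0.68 (adjusted p = 0.183).

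Itgax, which encodes CD11c, read 136, 97.6, 23.5 and 47.3 in KO OXA libraries, against 9.75, 16.4, 19.8 and 31.2 in KO vehicle libraries. In WT, Itgax read 117, 109, 76.9 and 126 with OXA, against 28.9, 13.9, 10.9 and 29 with vehicle. The WT groups did not overlap, and KO OXA replicate 3 lay inside the KO vehicle range. It rose by 2.41 ± 0.48 (adjusted p = 0.000679) in WT, and its KO value of 1.75 ± 0.48 (adjusted p = 0.0698) was called without KO OXA 3 or 4 (adjusted p from 0.00866 to 0.0381) and with edgeR, DESeq2 or thinned reads (adjusted p from 0.00166 to 0.0495). Clec10a, a galactose-binding lectin of cDC2 and macrophages, read 93.5, 129.8, 99 and 64.6 in KO OXA libraries, against 28.3, 66.5, 51 and 29.5 in KO vehicle libraries. In WT, Clec10a read 123, 104, 157 and 88.6 with OXA, against 44.1, 69.5, 52.9 and 26.7 with vehicle. The WT groups did not overlap and KO OXA replicate 4 lay just below KO vehicle replicate 2. It rose by 1.32 ± 0.34 (adjusted p = 0.00497) in WT, and its KO value of 1.17 ± 0.34 (adjusted p = 0.0875) was called without KO OXA 4, KO vehicle 2 or WT vehicle 4 (adjusted p from 0.0276 to 0.0498) and with DESeq2 (adjusted p = 0.0283). Its paralog Mgl2 lies close in sequence, so reads may be shared between them. Cd209a, a lectin of monocyte-derived dendritic cells, was the dendritic cell gene not called in WT. It read 45.8, 36.9, 33.4 and 20.5 in KO OXA libraries, against 10.7, 19.9, 13.7 and 29.5 in KO vehicle libraries. In WT, Cd209a read 23.9, 33.4, 31.4 and 26.5 with OXA, against 9.64, 24.7, 40.1 and 40.1 with vehicle, with overlap in both genotypes, and gave 0.90 ± 0.44 (adjusted p = 0.367) in KO and 0.18 ± 0.44 (adjusted p = 0.787) in WT.

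Cd207, the langerin gene (ENSMUSG00000034783, GRCm38 chromosome 6, 83671215 to 83677857), had no reads in any of the 4 WT OXA libraries, the deepest group. It read 18.3, 26.2, 6.19 and 6.3 in KO OXA libraries, against 1.95, 5.18, 2.28 and 8.21 in KO vehicle libraries. In WT, Cd207 read 0, 0, 0 and 0 with OXA, against 5.51, 9.27, 3.65 and 31.2 with vehicle. That was 45 reads over the KO OXA group, 16 over KO vehicle, 0 over WT OXA and 26 over WT vehicle. KO OXA and KO vehicle libraries overlapped, and the WT groups did not. With a floor of 3 reads over the WT OXA group, where 0 were seen, Cd207 was at least 33.3-fold lower in WT OXA than in WT vehicle. By the same floor it was at least 39.4-fold higher in KO OXA than in WT OXA. Both bounds cover only the counting error of the 0 in WT OXA, not that of the 26 or 45 reads. Without KO OXA replicate 2, 23 of the 45 reads remained and the KO OXA bound was 26.6-fold. Without WT vehicle replicate 4, which held 14 of the 26 WT vehicle reads, 12 reads remained and Cd207 was at least 18.95-fold lower in WT OXA. The fitted values depend on the pseudocount: 1.41 ± 0.70 (adjusted p = 0.374) in KO, -3.32 ± 0.70 (adjusted p = 0.00116) in WT and 4.73 ± 0.99 (adjusted p = 0.00279) for the difference of the effects. The WT call and the difference held under every alternative that tested the gene. Cd207 fell below the stricter filter, a value of 20 in 4 libraries. Squamous epithelial markers, from the tissue layer in which Langerhans cells sit, summed to 1227150 to 2681960 in KO OXA, 1321880 to 1627910 in KO vehicle, 440855 to 723311 in WT OXA and 1243930 to 1850770 in WT vehicle libraries over 6 genes with none at 0, most of it Krt4 and Krt13. The 6 did not move together with OXA in WT, where Krt13 fell (-1.16 ± 0.42, adjusted p = 0.0405), Krt4 gave -1.75 ± 0.68 (adjusted p = 0.0532), Krt14 and Cdh1 rose (2.04 ± 0.20, adjusted p = 4.22e-07, and 0.63 ± 0.13, adjusted p = 0.000914), and the median of the 6 was 0.0078. In KO none of the 6 was called by limma or edgeR and DESeq2 called 1 higher, with 1 higher and 0 lower in limma where the unadjusted p was under 0.05, and their part in the Cd207 result was not tested.

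Genes of mature, migrating dendritic cells were called higher for 3 of 3 tested in WT and for 1 of 3 in KO. Over all genes tested, 18% were called higher in WT and 1.81% in KO. In KO all 3 values were positive, and 3 were higher at an unadjusted p under 0.05 (9.44% of all genes). By edgeR and by DESeq2, 2 were called higher in KO and 3 in WT. The interaction was called for 1 of the 3, Fscn1, lower in KO (7.67% of all genes). Ccr7, the chemokine receptor that guides dendritic cells to lymph nodes, read 29.3, 50.01, 4.95 and 14.2 in KO OXA libraries, against 3.9, 1.73, 1.52 and 4.92 in KO vehicle libraries. In WT, Ccr7 read 58.8, 68.8, 80.8 and 31.3 with OXA, against 1.38, 3.09, 7.3 and 4.46 with vehicle. The 4 KO OXA libraries were all above KO vehicle, replicate 3 only just, and the WT groups were far apart. Ccr7 rose by 3.65 ± 0.62 (adjusted p = 0.000153) in WT, the highest fitted value of any member there, and its KO value of 2.36 ± 0.62 (adjusted p = 0.0529) was called without KO OXA 3 or 4 or WT vehicle 1 (adjusted p from 0.00683 to 0.0458) and with edgeR, DESeq2 or thinned reads (adjusted p from 0.00102 to 0.0309). Fscn1, the actin-bundling fascin of mature dendritic cell processes (ENSMUSG00000029581, GRCm38 chromosome 5, 142960343 to 142973185), read 222, 254, 146 and 169 in KO OXA libraries, against 150.1, 76.8, 191 and 82.1 in KO vehicle libraries. In WT, Fscn1 read 641, 657, 630.1 and 615 with OXA, against 173, 144, 162 and 227 with vehicle. KO OXA and KO vehicle libraries overlapped, and all WT OXA libraries lay far above every other library. It rose by 1.86 ± 0.25 (adjusted p = 1.81e-05) in WT, its KO value was 0.73 ± 0.25 (adjusted p = 0.183). The Fscn1 effects differed between genotypes by -1.13 ± 0.36 (adjusted p = 0.0353). The difference was lost without KO OXA 3 or 4, KO vehicle 1 or 3, WT OXA 1, 2, 3 or 4 or WT vehicle 2 or 3 (adjusted p from 0.052 to 0.0793) and with no filter (adjusted p = 0.0613). In WT vehicle libraries Fscn1 read 144 to 227, where Ccr7 read 1.38 to 7.3 and Ccl22 1.82 to 13.9. The part of cells other than dendritic cells, endothelium among them, in the Fscn1 values was not tested. Ccl22, a chemokine of mature dendritic cells that draws CCR4+ T cells, read 51.3, 33.3, 13.6 and 14.2 in KO OXA libraries, against 1.95, 0, 1.52 and 6.57 in KO vehicle libraries. In WT, Ccl22 read 58.4, 84.7, 72.2 and 53.5 with OXA, against 5.51, 13.9, 1.82 and 13.4 with vehicle. No groups overlapped within a genotype, and KO OXA replicates 1 and 2 were above replicates 3 and 4. Ccl22 rose by 3.20 ± 0.64 (adjusted p = 0.00779) in KO and 3.08 ± 0.64 (adjusted p = 0.000967) in WT, and the KO call was lost with the compared groups alone or both B-cell-rich KO libraries left out (adjusted p from 0.056 to 0.103). Ccl17, which shares the receptor CCR4, was low, with 14.7, 21.4, 2.48 and 3.94 in KO OXA, 4.87, 2.59, 4.57 and 14.8 in KO vehicle, 0.73, 4.62, 3.92 and 3.24 in WT OXA and 2.75, 3.09, 1.82 and 2.23 in WT vehicle libraries, and was not tested. In KO OXA, replicate 1 was the highest library for 12 of the 15 members called in KO, replicate 2 for 2 and replicate 3 for 1. The 5 pan-leukocyte markers (Ptprc, Cd53, Coro1a, Cd52 and Rac2), none at 0, were also higher in KO OXA replicates 1 and 2, with sums of 4336, 4685, 2233 and 1792 in KO OXA, against 643 to 1993 in KO vehicle, 3054 to 3888 in WT OXA and 1023 to 1210.3 in WT vehicle libraries, and the part of total leukocyte number in these rises was not tested.

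**Figure D3:**
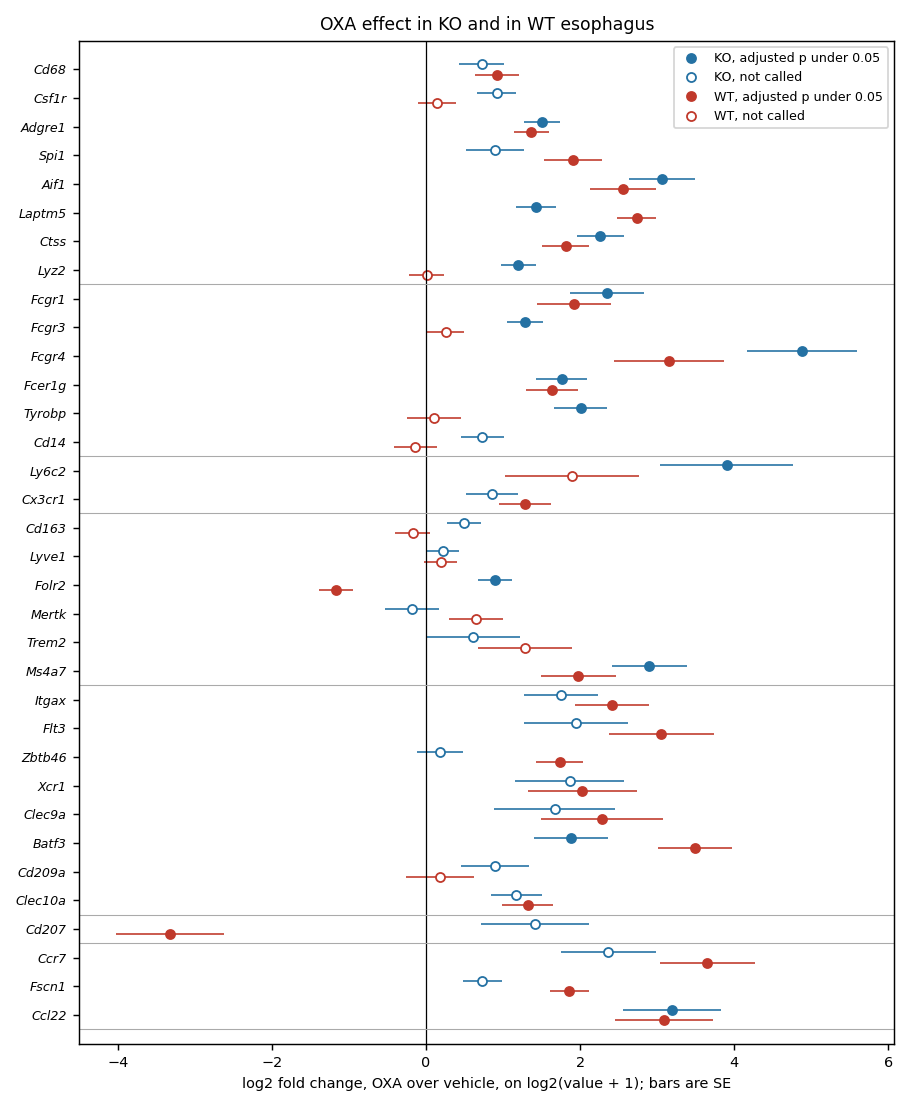
Log2 fold changes, OXA over vehicle, on log2(value + 1) (horizontal axis) for the 34 tested genes (down the page, grouped by role), KO in blue above WT in red. Points are limma estimates, bars are SE, and filled points have an adjusted p under 0.05. Ccr7 has the highest WT value and Fcgr4 the highest KO value, while Cd207 and Folr2 lie left of 0 in WT and right of 0 in KO.

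Between the genotypes under vehicle, no member was called (0 higher and 0 lower by limma, by edgeR and by DESeq2, where 0.0358% and 0.0239% of all genes were). Values nonetheless leaned one way: at an unadjusted p under 0.05, 0 members were higher and 10 lower in KO (0% and 29.4% of 34, against 5.30% and 3.83% of all genes), and the median log2 difference was -0.52, beside 0.022 over all genes. KO vehicle and WT vehicle libraries did not overlap for 3 members, all lower in KO, against 2.69% lower and 2.66% higher of all genes. These were Csf1r (-0.80 ± 0.25, adjusted p = 0.391), Cd14 (-0.85 ± 0.28, adjusted p = 0.422) and Folr2 (-0.53 ± 0.22, adjusted p = 0.505). These KO vehicle libraries are the baseline of the KO OXA effects. Under OXA, 5 members were higher and 3 lower in KO than in WT, 14.7% and 8.82% of members beside 14.6% and 12.9% of all genes, so the shares called were close to those of all genes. At an unadjusted p under 0.05, 6 members were higher and 10 lower (17.6% and 29.4%, against 19.0% and 18.9% of all genes). Values were above 0 for 11 of the 34 members, and the median log2 difference was -0.26, beside -0.047 over all genes. Cd207 (3.69 ± 0.70, adjusted p = 0.000542), Folr2 (1.53 ± 0.22, adjusted p = 2.92e-05), Tyrobp (1.001 ± 0.35, adjusted p = 0.0375), Fcgr3 (0.70 ± 0.24, adjusted p = 0.0311) and Lyz2 (0.65 ± 0.23, adjusted p = 0.038) were higher in KO OXA. Laptm5 (-1.80 ± 0.25, adjusted p = 2.89e-05), Fscn1 (-1.71 ± 0.25, adjusted p = 5.04e-05) and Zbtb46 (-1.282 ± 0.30, adjusted p = 0.00333) were lower. KO OXA and WT OXA libraries did not overlap for Cd207 and Folr2, higher in KO OXA, and for 7 members lower there (Spi1, Laptm5, Flt3, Zbtb46, Batf3, Fscn1 and Ccl22), where 14.0% and 15.3% of all genes did not overlap. The calls of Cd207, Folr2, Fscn1, Laptm5 and Zbtb46 held under every alternative that tested them. Tyrobp was lost without KO OXA 1 or 2 or WT OXA 1, 2 or 3 (adjusted p from 0.0637 to 0.155) and with no filter, totals set equal, the compared groups alone, thinned reads or both B-cell-rich KO libraries left out (adjusted p from 0.0613 to 0.193). Fcgr3 was lost without KO OXA 1, 2 or 3 or WT OXA 1 or 4 (adjusted p from 0.0574 to 0.124) and with totals set equal, the compared groups alone, thinned reads or both B-cell-rich KO libraries left out (adjusted p from 0.062 to 0.295). Lyz2 was lost without KO OXA 1, 2 or 3 or WT OXA 1, 2 or 3 (adjusted p from 0.0561 to 0.149) and with no filter, totals set equal, quantile scaling, the compared groups alone, thinned reads or both B-cell-rich KO libraries left out (adjusted p from 0.0656 to 0.466).

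Several members not called under OXA crossed the threshold in other fits, all lower in KO OXA except Cd163. Spi1 was called without KO OXA 2 or WT vehicle 2 (adjusted p from 0.0229 to 0.0459) and with totals set equal, the compared groups alone or thinned reads (adjusted p from 0.0113 to 0.0445), Mertk without KO OXA 2, KO vehicle 4 or WT vehicle 2 (adjusted p from 0.0146 to 0.0424) and with totals set equal, the compared groups alone, thinned reads or both B-cell-rich KO libraries left out (adjusted p from 0.00794 to 0.0307), and Flt3 without KO OXA 1 or KO vehicle 1 (adjusted p from 0.0352 to 0.0361) and with a pseudocount of 5, totals set equal, the compared groups alone, thinned reads or both B-cell-rich KO libraries left out (adjusted p from 0.0186 to 0.0407). Ccr7 was called without KO OXA 2 (adjusted p = 0.0208) and with a pseudocount of 5, totals set equal, thinned reads or both B-cell-rich KO libraries left out (adjusted p from 0.0184 to 0.0316), Fcer1g without KO OXA 1 (adjusted p = 0.0253), and Cd163, higher in KO OXA, without KO OXA 4 or WT OXA 3 (adjusted p from 0.0324 to 0.0342). Batf3, Ccl22, Adgre1, Cx3cr1 and Lyve1 were called in changed settings but with no library left out. With equal library totals the median difference of all genes moved by -0.39, 19.9% of calls were higher in KO against 53.1% in the analysis reported, and the members split into 2 higher and 12 lower. The OXA effect itself differed between the genotypes for 8 members (where 17.8% of all genes were called), 5 higher and 3 lower in KO (14.7% and 8.82% of members, beside 10.1% and 7.67% of all genes), so these shares too were near those of all genes. The 5 were Cd207, Folr2, Tyrobp, Lyz2 and Fcgr3, and the 3 were Zbtb46, Laptm5 and Fscn1, and this test shares its OXA libraries with the comparison of KO OXA and WT OXA. The median difference of the effects was 0.12 over the members and -0.10 over all genes. With equal library totals the all-gene median of the interaction moved by -0.42 and 20.3% of calls were higher, against 56.9% in the analysis reported, and the members split into 3 higher and 4 lower.

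**Figure D4:**
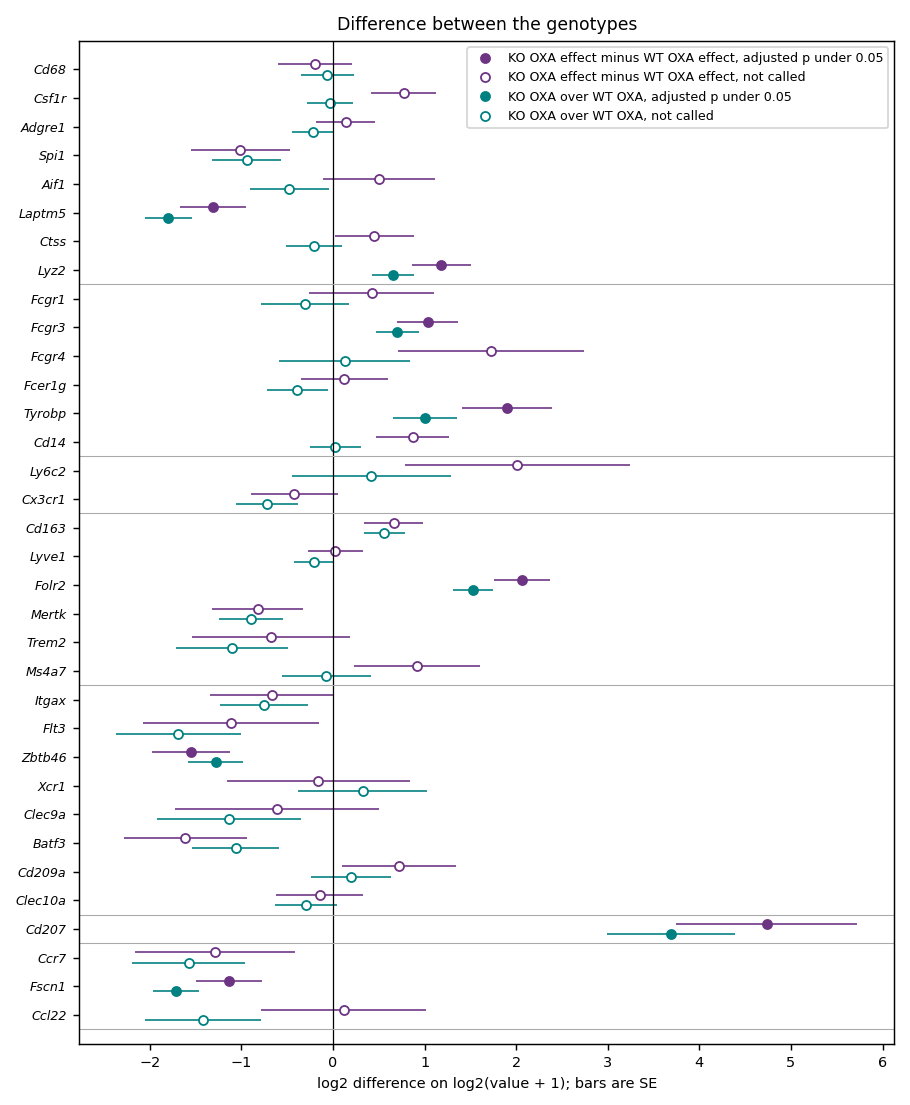
Genotype differences on log2(value + 1) (horizontal axis) for the 34 tested genes (down the page), with the KO OXA effect minus the WT OXA effect in purple above KO OXA over WT OXA in green. Points are limma estimates, bars are SE, and filled points have an adjusted p under 0.05. Cd207 and Folr2 lie farthest right among the called genes, and Zbtb46, Laptm5 and Fscn1 lie left of 0 in both.

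Ligands that feed and draw these cells were read in the same libraries, from a list of 13 growth factors and chemokines of which 10 could be tested. OXA raised 3 of them in KO and 5 in WT, and lowered 0 in KO and 1 in WT. Of all genes tested, OXA raised 1.81% in KO and 18% in WT and lowered 0.0896% in KO and 16% in WT, and the effect was higher in KO for 10.1% and lower in KO for 7.67%. Il34, a ligand of the CSF1 receptor made by epithelium and needed for Langerhans cells in mouse skin, read 205, 236, 116 and 137 in KO OXA libraries, against 146, 150.2, 198 and 136 in KO vehicle libraries. In WT, Il34 read 486, 555, 577 and 369.9 with OXA, against 235, 148, 94.9 and 134 with vehicle. KO groups overlapped and every WT OXA library was above every other library. Il34 rose by 1.75 ± 0.26 (adjusted p = 4.56e-05) in WT, its KO value was 0.096 ± 0.26 (adjusted p = 0.913). The Il34 effects differed between genotypes by -1.65 ± 0.37 (adjusted p = 0.00457), which held under every alternative. Csf1, the main macrophage growth factor, rose in WT (0.76 ± 0.23, adjusted p = 0.0133), with a KO value of 0.18 ± 0.23 (adjusted p = 0.771). Ccl12, a mouse ligand of CCR2, read 154, 169, 109 and 73.3 in KO OXA libraries, against 2.92, 1.73, 8.37 and 3.28 in KO vehicle libraries. In WT, Ccl12 read 17.4, 24.6, 23.1 and 21.6 with OXA, against 20.6, 21.6, 5.47 and 4.46 with vehicle. KO OXA libraries were above every other library. It rose by 4.73 ± 0.51 (adjusted p = 1.9e-05) in KO, its WT value was 0.97 ± 0.51 (adjusted p = 0.151). The Ccl12 effects differed between genotypes by 3.76 ± 0.72 (adjusted p = 0.00145). Ccl7, another monocyte attractant, rose in both, by 2.05 ± 0.41 (adjusted p = 0.00731) in KO, lost with both B-cell-rich KO libraries left out (adjusted p = 0.0524), and by 2.74 ± 0.41 (adjusted p = 4.15e-05) in WT. Xcl1, the ligand of XCR1 made by NK and CD8+ T cells, rose by 4.44 ± 0.74 (adjusted p = 0.00146) in KO and 3.09 ± 0.74 (adjusted p = 0.00332) in WT. Cx3cl1, the ligand of CX3CR1, and Ccl21a, a ligand of CCR7 made by lymphatic vessels, were not called, with Cx3cl1 at 0.70 ± 0.46 (adjusted p = 0.534) in KO and 0.31 ± 0.46 (adjusted p = 0.648) in WT and Ccl21a at 0.053 ± 0.29 (adjusted p = 0.958) in KO and -0.068 ± 0.29 (adjusted p = 0.883) in WT. Csf2, Flt3l and Ccl19 were not tested. Flt3l was at 0 in all libraries, Csf2 read 0.39 to 2.54 in WT OXA libraries and 0 elsewhere, and Ccl19 read 0 to 1.19 in KO OXA, 0 in KO vehicle, 1.57 to 8.35 in WT OXA and 0 to 2.75 in WT vehicle libraries. As for Itgam, the 0 of Flt3l says nothing of the cells.

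Receptors and partner chains rose for 2 of 9 tested in KO and 7 of 9 in WT, and for 6 of the 9 the effects differed (1 higher and 5 lower in KO), beside 1.81%, 18% and, for differing effects, 17.8% of all genes. Ccr2, the receptor that brings monocytes out of marrow, read 273, 608, 219 and 176 in KO OXA libraries, against 100.4, 94.1, 133 and 83.7 in KO vehicle libraries. In WT, Ccr2 read 526, 609, 618 and 698 with OXA, against 118, 114, 74.8 and 55.7 with vehicle. No groups overlapped within a genotype. Ccr2 rose by 1.47 ± 0.31 (adjusted p = 0.011) in KO, lost with both B-cell-rich KO libraries left out (adjusted p = 0.0918), and by 2.80 ± 0.31 (adjusted p = 1.33e-06) in WT. The Ccr2 effects differed between genotypes by -1.33 ± 0.43 (adjusted p = 0.0392). That difference was lost without KO OXA 1, 3 or 4, KO vehicle 1, 2 or 3, WT OXA 2, 3 or 4 or WT vehicle 3 or 4 (adjusted p from 0.0559 to 0.0813) and with no filter, edgeR or DESeq2 (adjusted p from 0.0597 to 0.0843). Csf2rb, the beta chain shared by the GM-CSF, IL-3 and IL-5 receptors, rose in WT (2.76 ± 0.42, adjusted p = 5.37e-05), with a KO value of 0.96 ± 0.42 (adjusted p = 0.306). The Csf2rb effects differed between genotypes by -1.81 ± 0.59 (adjusted p = 0.0403), lost without KO OXA 1 or 3, KO vehicle 1, 2 or 3, WT OXA 1, 2, 3 or 4 or WT vehicle 1 or 2 (adjusted p from 0.0505 to 0.0859) and with no filter (adjusted p = 0.0776). Sirpa, the CD47 receptor of macrophages and cDC2, rose in WT (1.84 ± 0.25, adjusted p = 1.61e-05), with a KO value of 0.72 ± 0.25 (adjusted p = 0.177). The Sirpa effects differed between genotypes by -1.11 ± 0.35 (adjusted p = 0.0339), lost without KO OXA 3 or 4, KO vehicle 1, 2 or 3, WT OXA 1, 3 or 4 or WT vehicle 2 (adjusted p from 0.0527 to 0.076) and with no filter (adjusted p = 0.0578). Its ligand Cd47, widely expressed, rose in WT (0.89 ± 0.13, adjusted p = 3.46e-05) with a KO value of 0.34 ± 0.13 (adjusted p = 0.23). The Cd47 effects differed between genotypes by -0.55 ± 0.18 (adjusted p = 0.043), lost without KO OXA 3 or 4, KO vehicle 1, 2 or 3, WT OXA 1, 2, 3 or 4 or WT vehicle 1, 2, 3 or 4 (adjusted p from 0.0514 to 0.0927) and with no filter, a robust fit or both B-cell-rich KO libraries left out (adjusted p from 0.0523 to 0.0695). Itgb2, the beta chain that pairs with CD11b and CD11c, was the 1 receptor gene whose effect was higher in KO. It read 1740.1, 1169, 954 and 1329 in KO OXA libraries, against 549, 646, 622 and 346 in KO vehicle libraries. In WT, Itgb2 read 1019, 1128, 785 and 811 with OXA, against 819, 737, 797 and 773 with vehicle, so KO groups did not overlap and WT groups did. Itgb2 rose by 1.27 ± 0.20 (adjusted p = 0.000711) in KO, its WT value was 0.24 ± 0.20 (adjusted p = 0.369). The Itgb2 effects differed between genotypes by 1.02 ± 0.28 (adjusted p = 0.0157), lost with totals set equal or thinned reads (adjusted p from 0.119 to 0.144). Ccr4, the receptor for CCL17 and CCL22, read 0 to 3.67 in KO OXA and 0 to 4.11 in WT OXA libraries and was not tested.

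Among phagocyte transcription factors, 2 of 11 tested rose in KO and 5 in WT, beside 1.81% and 18% of all genes. Runx3, needed for Langerhans cells in mice and used by lymphocytes too, rose by 3.13 ± 0.67 (adjusted p = 0.0147) in KO, lost without KO OXA 1 or 2 or KO vehicle 1 or 3 (adjusted p from 0.0507 to 0.0818) and with no filter, the compared groups alone or both B-cell-rich KO libraries left out (adjusted p from 0.0537 to 0.0778), and by 3.35 ± 0.67 (adjusted p = 0.000794) in WT. Cebpb, a factor of monocytes and epithelium, rose in WT (0.72 ± 0.17, adjusted p = 0.0029), its KO value was -0.25 ± 0.17 (adjusted p = 0.556). The Cebpb effects differed between genotypes by -0.97 ± 0.24 (adjusted p = 0.00914). Id2, required by dendritic and Langerhans cells in mice, gave 0.63 ± 0.23 (adjusted p = 0.207) in KO and rose by 0.70 ± 0.23 (adjusted p = 0.024) in WT, lost without WT OXA 4 or WT vehicle 1 or 2 (adjusted p from 0.0595 to 0.0818). The KO value of Id2 was called without KO OXA 4 (adjusted p = 0.0376). Irf4, a factor of cDC2, was not called (0.22 ± 0.68, adjusted p = 0.922 in KO and 1.23 ± 0.68 (adjusted p = 0.174) in WT), though WT was called without KO OXA 3 (adjusted p = 0.0356) and with the compared groups alone (adjusted p = 0.0227), and Irf8, needed for cDC1, was at 0 in every library. As for Itgam, the 0 of Irf8 says nothing of the cells.

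Of 12 other macrophage genes tested, 4 rose in KO and none fell, while 3 rose and 3 fell in WT, and for 5 the effect was higher in KO. The shares over all genes were 1.81% higher in KO, 18% higher and 16% lower in WT and 10.1% for an effect higher in KO, so the WT counts of 3 and 3 of 12 are near those of all genes. Gpnmb, a glycoprotein of lipid-handling macrophages and of melanocytes, read 489.6, 419, 329 and 583 in KO OXA libraries, against 462, 559, 530.3 and 519 in KO vehicle libraries. In WT, Gpnmb read 93.3, 134, 89.8 and 197 with OXA, against 526, 627, 819 and 898 with vehicle. WT OXA libraries were below every other library, as they were for Folr2. Gpnmb fell in WT (-2.51 ± 0.23, adjusted p = 1.66e-07), its KO value was -0.21 ± 0.23 (adjusted p = 0.738). The Gpnmb effects differed between genotypes by 2.30 ± 0.33 (adjusted p = 0.000105). Apoe, the lipid carrier of resident macrophages and other cells, fell in WT (-1.16 ± 0.19, adjusted p = 0.000142), its KO value was 0.083 ± 0.19 (adjusted p = 0.896). The Apoe effects differed between genotypes by 1.24 ± 0.27 (adjusted p = 0.00414). C1qb, a chain of complement C1q made by tissue macrophages, read 5774, 2843, 2478 and 2214 in KO OXA libraries, against 975, 1007, 789 and 601 in KO vehicle libraries. In WT, C1qb read 1706, 2033, 1629 and 1785 with OXA, against 1797, 1043, 1292 and 1208 with vehicle. The KO groups were far apart, with replicate 1 the highest, and the WT groups overlapped. C1qb rose by 1.90 ± 0.24 (adjusted p = 9.23e-05) in KO, its WT value was 0.45 ± 0.24 (adjusted p = 0.166). The C1qb effects differed between genotypes by 1.45 ± 0.34 (adjusted p = 0.00642). C1qa, its partner chain, rose by 1.62 ± 0.25 (adjusted p = 0.000628) in KO and 1.13 ± 0.25 (adjusted p = 0.00164) in WT, with no called difference (0.48 ± 0.35, adjusted p = 0.37). Mrc1, the mannose receptor, rose by 1.14 ± 0.21 (adjusted p = 0.00319) in KO and 1.08 ± 0.21 (adjusted p = 0.000502) in WT.

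Of 13 other dendritic cell genes tested, 2 rose in KO and 5 in WT, and for 3 the effect was higher in KO, beside 1.81%, 18% and 10.1% of all genes. Mgl2, a lectin of dermal-type cDC2, read 295, 342, 264 and 198 in KO OXA libraries, against 122, 134, 116 and 100.1 in KO vehicle libraries. In WT, Mgl2 read 132, 209, 223 and 93.4 with OXA, against 201, 144, 208 and 205 with vehicle. KO groups did not overlap and WT groups did. Mgl2 rose by 1.19 ± 0.25 (adjusted p = 0.0116) in KO, lost without KO OXA 2 (adjusted p = 0.0645) and with both B-cell-rich KO libraries left out (adjusted p = 0.084), its WT value was -0.27 ± 0.25 (adjusted p = 0.431). The Mgl2 effects differed between genotypes by 1.47 ± 0.35 (adjusted p = 0.00717), while its near copy Clec10a showed no called difference (-0.14 ± 0.47, adjusted p = 0.871). Ccl5, a chemokine of dendritic cells and T cells, rose by 3.37 ± 0.70 (adjusted p = 0.0109) in KO, lost without KO OXA 1 or 2 or KO vehicle 1 (adjusted p from 0.0502 to 0.0626) and with the compared groups alone (adjusted p = 0.0675), and by 3.65 ± 0.70 (adjusted p = 0.000516) in WT. Cd80 and Cd83, costimulatory and maturation molecules, rose in WT, Cd80 by 1.74 ± 0.34 (adjusted p = 0.000594) and Cd83 by 2.15 ± 0.50 (adjusted p = 0.00251), with KO values of 0.54 ± 0.34 (adjusted p = 0.506) and 0.94 ± 0.50 (adjusted p = 0.414). Il12b, the shared subunit of IL-12 and IL-23, rose in WT by 3.53 ± 1.03 (adjusted p = 0.0122), lost with edgeR or DESeq2 (adjusted p from 0.0551 to 0.0791), with a KO value of 2.22 ± 1.03 (adjusted p = 0.334). T cell markers, 8 genes with none at 0, summed to 299.6 to 1392 in KO OXA, 57.5 to 481 in KO vehicle, 856 to 1196 in WT OXA and 138 to 239.6 in WT vehicle libraries, and rose for 1 of 8 in KO and 8 of 8 in WT. NK cell markers, 5 genes, summed to 3.71 to 66.7 in KO OXA, 1.94 to 23.3 in KO vehicle, 45.4 to 75.7 in WT OXA and 0 to 16.4 in WT vehicle libraries, with Prf1 at 0 in KO vehicle and Eomes and Prf1 at 0 in WT vehicle. The part of T and NK cells in the values of Xcl1, Runx3, Ccl5, Ccr7 and Laptm5 was not tested.

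**Figure D5:**
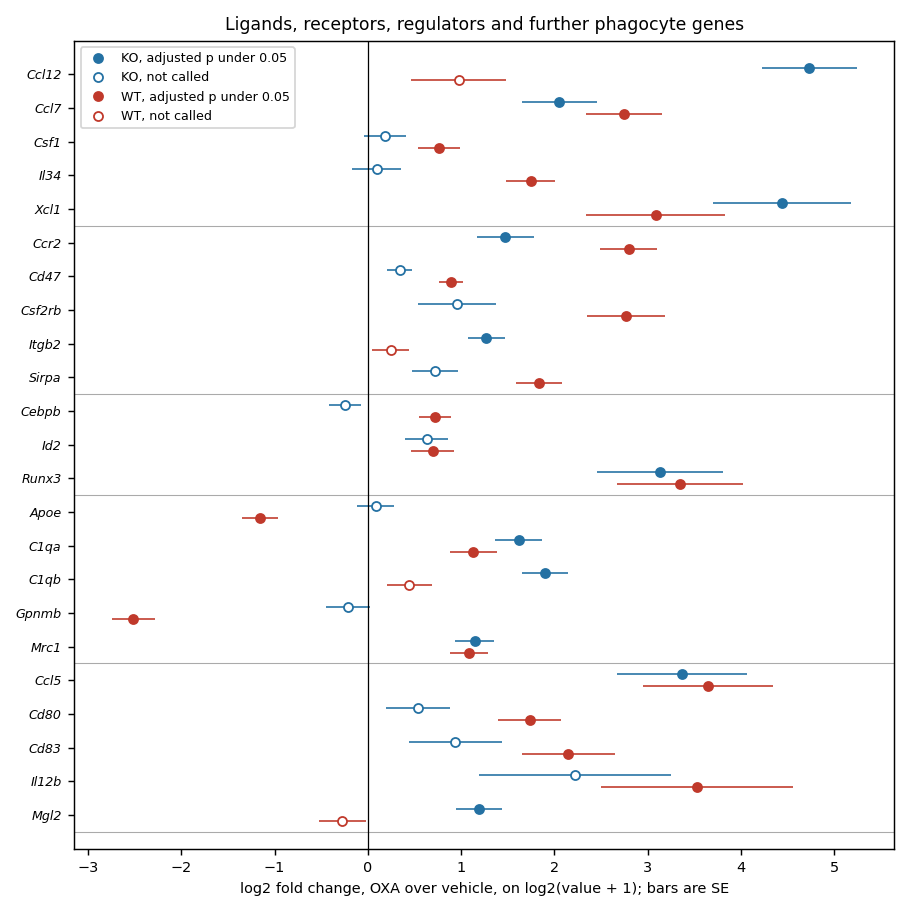
Log2 fold changes, OXA over vehicle, on log2(value + 1) (horizontal axis) for ligands, receptors, regulators and further phagocyte genes (down the page, grouped by list), KO in blue above WT in red. Points are limma estimates, bars are SE, and filled points have an adjusted p under 0.05. Ccl12 and C1qb are farther right in KO, Il34 and Csf2rb farther right in WT, and Gpnmb and Apoe lie left of 0 in WT.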

How the data were processed

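RNA of whole mouse esophagus was extracted with TRIZOL and sequenced by CEL-Seq, per the labels' protocols. The submitters' processing notes name FastQC 0.11.5, Trim Galore, cutadapt 1.10, TopHat2 2.1.0, Bowtie2 2.2.6, HTSeq 0.6.1, DESeq2 1.28.0 and build GRCm38, with no settings. The authors deposited normalized counts, a signal per gene made by dividing each library's counts by its own size factor. Whole reads were recovered for 100% of values within 0.1 of a read. The 36 genes and all lists were chosen with earlier results of these data known. Beyond the 36, genes are named from each further list by the smallest p in WT (up to 4) and in KO or the interaction (up to 2), plus 12 ligands, receptors and regulators named whatever their values, and marker lists of other cells. Of these, 1 gene is not reported here, nor is 1 of the letter patterns sought in promoters. The 16748 genes that reached a value of 5 in 4 or more libraries entered a limma (3.58.1, R 4.3.3) model of log2(value + 1) with 4 group means over 16 libraries, a trended prior, two-sided tests and Benjamini-Hochberg adjustment. The fit was tested on simulated data. Alternatives were pseudocounts of 0.5 and 5, no filter, a filter of 20, equal library totals, quantile normalization, only the groups compared, a robust fit, edgeR 4.0.16 and DESeq2 1.42.0 on the recovered reads, reads thinned to the shallowest library, and each library left out. Leaving out both KO libraries rich in B cell markers was added after seeing the data. Gene positions are from GENCODE M21 on GRCm38. Depth was 5.61 to 27.3 M reads a library, and bounds cover only the counting error of the group at 0. Of 41411 genes, 14402 were at 0 in every library, and no 2 libraries were identical. Replicate numbers are in accession order and pair nothing.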

Additional observations from a re-analysis of the deposited data

Results flagged for a closer look

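In 10 of 139 groups of 4 libraries (7.19%), 1 library lay far from the other 3 by Dixon's gap test, where chance flags about 1 in 20. KO OXA replicate 2 stood apart for Clec9a at 23.8, above the 1.83 to 3.15 of the other libraries. KO vehicle replicate 2 stood apart for Lyz2 at 2169, above the 1366 to 1492 of the other libraries, Cx3cr1 at 55.2, above the 29.2 to 31.2 of the other libraries and Ms4a7 at 10.4, above the 3.8 to 4.92 of the other libraries. KO vehicle replicate 4 stood apart for Xcr1 at 24.6, above the 4.57 to 6.82 of the other libraries. WT OXA replicate 1 stood apart for Trem2 at 10.5, below the 22.8 to 25.1 of the other libraries. WT OXA replicate 3 stood apart for Batf3 at 77.7, above the 53 to 57 of the other libraries. WT vehicle replicate 1 stood apart for Zbtb46 at 73, above the 31.2 to 36.5 of the other libraries. WT vehicle replicate 2 stood apart for Mertk at 365, above the 145 to 179 of the other libraries and Flt3 at 9.27, above the 3.65 to 4.46 of the other libraries. KO vehicle replicate 2 is also a library with high B cell markers (a sum of 1601), and the part of B cells in these values was not tested. For 8 members the OXA effect differed between the genotypes by limma's interaction test (KO effect minus WT effect, adjusted over all genes tested). The Cd207 effect was higher in KO by 4.73 ± 0.99 (adjusted p = 0.00279). The Folr2 effect was higher in KO by 2.06 ± 0.31 (adjusted p = 0.000142). The Tyrobp effect was higher in KO by 1.90 ± 0.49 (adjusted p = 0.0116). The Lyz2 effect was higher in KO by 1.18 ± 0.32 (adjusted p = 0.0154). The Fcgr3 effect was higher in KO by 1.03 ± 0.33 (adjusted p = 0.0371). The Zbtb46 difference was -1.55 ± 0.43 (adjusted p = 0.0163). The Laptm5 difference was -1.31 ± 0.36 (adjusted p = 0.0159). The Fscn1 difference was -1.13 ± 0.36 (adjusted p = 0.0353).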

How the results depend on the processing

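No called member value changed sign under any alternative, though values that were called in neither fit did, and of 4710 values of members under alternatives 4517 (95.9%) kept their side of the threshold, 73 (1.55%) gained a call and 120 (2.55%) lost one. For Klf4, KO against WT under OXA, a transcription factor not called there (0.048), the value was -0.364 with equal totals and -0.363 with thinned reads, both called lower (adjusted p from 0.0343 to 0.0412), and the cause was not tested. Between KO and WT vehicle libraries, 10 of all genes were called, against 5 with no filter, 5 with equal totals, 46 by DESeq2, 6 with thinned reads and 5 without the B-cell-rich libraries. For OXA in KO, 318 genes were called, against 199 with only the groups compared, 722 by DESeq2 and 190 without the B-cell-rich libraries. Members higher in the interaction numbered 5, against 3 with equal totals and 2 with thinned reads. Members higher in KO OXA than in WT OXA numbered 5, against 3 with no filter and 2 each with equal totals, only the groups compared, thinned reads and the B-cell-rich libraries left out. Members lower there numbered 3, against 7 with a pseudocount of 5, 12 with equal totals, 8 with only the groups compared, 5 by DESeq2, 10 with thinned reads and 6 without the B-cell-rich libraries. Members lower with OXA in WT numbered 2, against 1 with the filter of 20, which left Cd207 untested. The cause of the other shifts was not tested. With thinned reads, 77.0% of WT calls, 21.1% of interaction calls and 20.5% of calls between KO OXA and WT OXA were higher. With each library left out, all genes called ranged 182 to 1027 for OXA in KO (1027 without KO OXA replicate 4), 4477 to 6145 for OXA in WT, 2230 to 3465 for the interaction, 3623 to 5093 for KO OXA against WT OXA and 3 to 12 under vehicle. Members higher ranged 12 to 19 for OXA in KO, 18 to 22 for OXA in WT, 4 to 5 for the interaction, 2 to 6 for KO OXA against WT OXA and 0 under vehicle, and members lower ranged 0 to 0, 2 to 2, 2 to 3, 3 to 6 and 0 to 0 in the same order of comparisons. No interaction could be fitted with only the groups compared. No paired analysis was possible because the library codes differ in every group and replicate numbers follow accession order. Low genes rest on few reads, such as the 45 of Cd207 over KO OXA and 26 over WT vehicle.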

Other observations

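Further genes tied to these cells, chosen after their values were seen, also moved, and all p-values are limma's over all genes tested. Ccl20 read 51.3, 39.3, 14.8 and 5.52 in KO OXA libraries, against 3.9, 3.45, 3.04 and 4.92 in KO vehicle libraries, and 5.44, 1.03, 0 and 0 in WT OXA libraries, against 33, 27.8, 49.3 and 0 in WT vehicle libraries. CCL20 draws CCR6+ dendritic and T cells to epithelium, and its gene fell in WT (-2.97 ± 0.997, adjusted p = 0.0268), a call lost without WT OXA 3 or 4 or WT vehicle 1, 2 or 3 (adjusted p from 0.0686 to 0.0969) and with no filter, the compared groups alone or thinned reads (adjusted p from 0.0571 to 0.0664). The KO value was 2.18 ± 0.997 (adjusted p = 0.327). The Ccl20 effects differed between genotypes by 5.15 ± 1.41 (adjusted p = 0.0158), a call lost with both B-cell-rich KO libraries left out (adjusted p = 0.0502). WT vehicle replicate 4 was at 0, apart from the other WT vehicle libraries. Pf4 read 963, 404, 578 and 244 in KO OXA libraries, against 406, 934, 352 and 313 in KO vehicle libraries, and 225, 198, 219 and 279.7 in WT OXA libraries, against 560.4, 760.3, 438 and 588 in WT vehicle libraries. Pf4, a chemokine of platelets and resident macrophages, fell in WT (-1.33 ± 0.34, adjusted p = 0.00529), its KO value was 0.097 ± 0.34 (adjusted p = 0.932). The Pf4 effects differed between genotypes by 1.43 ± 0.48 (adjusted p = 0.0468), a call lost without KO OXA 1 or 3, KO vehicle 1, 3 or 4, WT OXA 1, 2 or 3 or WT vehicle 1, 2 or 4 (adjusted p from 0.0619 to 0.101) and with no filter, totals set equal, edgeR or thinned reads (adjusted p from 0.0506 to 0.109). Tgfbr2 read 552, 609.6, 532 and 709.9 in KO OXA libraries, against 605, 501, 557 and 622 in KO vehicle libraries, and 1111, 1224, 921 and 944 in WT OXA libraries, against 702, 717, 533 and 513 in WT vehicle libraries. This chain of the receptor for TGF-beta, a factor needed for Langerhans cells in mice, rose in WT (0.78 ± 0.15, adjusted p = 0.000664), its KO value was 0.069 ± 0.15 (adjusted p = 0.889). The Tgfbr2 effects differed between genotypes by -0.71 ± 0.22 (adjusted p = 0.0291), a call lost without KO OXA 3, KO vehicle 1 or 4, WT OXA 1 or 2 or WT vehicle 3 or 4 (adjusted p from 0.0522 to 0.0688).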
